A study of Mus musculus with 46 samples.

Results

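The genes described here are 35 interferon-stimulated genes, measured in the livers of knockout and control mice on 3 diets. They were chosen by symbol. The gene IDs of 4 deposited tables of raw read counts were matched to symbols, and all 35 were found among the 55416 genes of the tables (Ddx58, encoding RIG-I, under that older symbol). Together they cover 3 transcription factors (Irf7, Irf9 and Stat2), 4 sensors of foreign or misplaced nucleic acid (Ifih1, Ddx58, Dhx58 and Zbp1), the ubiquitin-like modifier Isg15 with its protease Usp18, 4 IFIT genes, 6 genes of the OAS family, 2 Mx genes, 7 other effectors (Bst2, Rsad2, Xaf1, Ifi27, Ifi44, Rtp4 and Parp14), 4 immunity-related GTPases (Iigp1, Igtp, Irgm1 and Irgm2) and 3 guanylate-binding proteins (Gbp2, Gbp3 and Gbp7).

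Interferons are secreted cytokines. Type I interferons act through a receptor whose kinases activate STAT2, which with IRF9 is part of a complex that binds the interferon-stimulated response element of its target genes, while interferon gamma acts mainly at gamma-activated sites. The products block viral entry, translation and budding or attack the vacuoles of intracellular parasites, and several of them (IRF7, STAT2, IRF9, the sensors) feed back to raise the response. In the liver, hepatocytes respond to interferon, and Kupffer cells, the resident macrophages, both sense and respond.

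All livers came from male mice and were snap-frozen, and total RNA was sequenced. In the Plvap line (C57BL/6JBomTac, allele Plvaptm1.1Salm with the transgene Tg(Lrat-cre)1Rshw) the gene for a diaphragm protein of caveolae and fenestrae was deleted by a Cre under the promoter of Lrat, a retinol-esterifying enzyme of hepatic stellate cells, and littermates were the controls. Which of the alleles the littermates carried is not given in the sources used here, and for the diet livers the genotype field names the same allele for both genotypes, so the title set the group. The chow mice, fasted for 12 h, gave 5 Plvap KO and 6 control livers. Chow mice that were refed for 2 h following 10 h without food gave 4 Plvap KO and 4 control livers. Western diet for 6 weeks (drinking water supplemented with fructose) gave 4 Plvap KO and 5 control livers, and high-fat diet for 6 weeks (plain water) gave 5 Plvap KO and 5 control livers, in both cases following a 12 h fast. The Cav1 experiment, on chow, set 4 livers of whole-body Cav1 KO mice (STOCK Cav1tm1Mls/J; Cav1 encodes the coat protein of caveolae) against 4 livers of C57BL/6N wild types after 6 h of fasting, so that there genotype and mouse stock cannot be told apart. The free text of the labels gives a 12 h fast for the refed and Cav1 experiments too, and the entries for each sample were used instead. Ages are not given in the sources used here.

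Libraries held 6656342 to 23311539 counts. The 5 hepatocyte markers summed to at least 35500 CPM in every liver. The targeted genes followed the labels: Plvap averaged 5.33, 5.75, 5.54 and 7.27 CPM in KO livers (chow, refed, western, high-fat), against 26.7, 32.3, 29.5 and 28.7 CPM in their controls, and Cav1 averaged 0.854 ± 0.549 CPM in Cav1 KO livers and 5.11 ± 1.03 CPM in wild types (SD, n = 4 each). CPM here are counts scaled to library size by the trimmed mean of M-values (TMM) within each table, and group values are means ± SD. A gene was called when the adjusted p of edgeR's quasi-likelihood test (Benjamini-Hochberg over all genes tested) was under 0.05, and fold changes are on the log2 scale ± SE. The labels give each sample its own letter within a group and its own code, and the p-values measure the spread between these livers. In bulk tissue, fewer cells of a type and less RNA per cell cannot be told apart.

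Some libraries stood apart before any comparison was made. In the western-diet controls, liver A was the highest of its 5 livers for 34 of the 35 members, against 30.8% of all genes. Of these members, 30 passed Dixon's gap test, which sets the gap to the nearest liver against the range of the group (5.26% of all genes did in that liver). In the Cav1 KO group, liver C was the highest of 4 for 32 members, against 28% of all genes. Of these members, 5 passed the gap test (1.18% of all genes did in that liver). The main values that rest on these livers are given with and without them.

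The promoters of 6 members are shown because these genes carry the results. Irf7, Bst2, Stat2 and Xaf1 were called in a comparison (for Iigp1, also called, the table held no entry), and Oas1a and Isg15 were among the 4 members furthest above their group in the liver that stood apart. Each is the stretch of 250 bases before the gene start, read 5′ to 3′ on the gene's strand from the RefSeq table of GRCm38.p6, an earlier build than the GRCm39 of the count tables. Capitals mark GAAA, any 2 bases and GAAA again, a form of the interferon-stimulated response element, searched on both strands.
Irf7 (chr7:141266425-141266674, minus strand): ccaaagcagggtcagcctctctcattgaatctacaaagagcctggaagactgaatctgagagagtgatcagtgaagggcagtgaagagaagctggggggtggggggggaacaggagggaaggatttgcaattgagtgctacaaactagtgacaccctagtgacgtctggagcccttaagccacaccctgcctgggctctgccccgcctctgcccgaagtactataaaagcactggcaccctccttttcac
Bst2 (chr8:71537473-71537722, minus strand): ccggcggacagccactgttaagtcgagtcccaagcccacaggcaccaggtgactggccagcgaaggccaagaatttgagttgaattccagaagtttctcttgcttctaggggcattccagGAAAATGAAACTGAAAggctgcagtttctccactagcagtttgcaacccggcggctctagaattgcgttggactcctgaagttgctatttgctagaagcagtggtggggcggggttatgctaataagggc
Oas1a (chr5:120907526-120907775, minus strand): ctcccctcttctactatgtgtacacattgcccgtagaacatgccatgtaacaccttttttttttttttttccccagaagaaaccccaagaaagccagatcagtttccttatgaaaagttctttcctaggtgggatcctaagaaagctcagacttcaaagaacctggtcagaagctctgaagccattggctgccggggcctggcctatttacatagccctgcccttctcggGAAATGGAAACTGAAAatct
Isg15 (chr4:156200819-156201068, minus strand): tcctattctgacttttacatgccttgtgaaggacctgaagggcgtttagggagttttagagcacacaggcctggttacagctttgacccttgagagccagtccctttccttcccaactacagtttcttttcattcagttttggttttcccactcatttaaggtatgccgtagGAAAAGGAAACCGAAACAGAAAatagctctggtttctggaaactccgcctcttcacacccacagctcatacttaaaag
Stat2 (chr10:128270248-128270497, plus strand): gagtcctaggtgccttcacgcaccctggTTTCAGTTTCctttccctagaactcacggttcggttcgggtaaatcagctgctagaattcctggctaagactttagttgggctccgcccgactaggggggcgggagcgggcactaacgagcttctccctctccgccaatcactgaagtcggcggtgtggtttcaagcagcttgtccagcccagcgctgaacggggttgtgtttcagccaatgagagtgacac
Xaf1 (chr11:72301379-72301628, plus strand): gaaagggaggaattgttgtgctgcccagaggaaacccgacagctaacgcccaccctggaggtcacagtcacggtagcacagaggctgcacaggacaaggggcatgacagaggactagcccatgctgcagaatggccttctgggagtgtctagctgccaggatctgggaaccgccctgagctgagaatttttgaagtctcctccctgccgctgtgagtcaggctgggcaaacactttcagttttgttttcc
The Bst2 letters begin 130 and 124 bases before the gene start, those of Oas1a 20 and 14 bases, those of Isg15 78, 72 and 66 bases, and those of Stat2, on the opposite strand, 222 bases before it. Neighbouring matches in Bst2, Oas1a and Isg15 overlap by the shared GAAA. Irf7 and Xaf1 have no such letters in this window.

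Windows of 250 bases before to 50 bases after the start were found for 25 of the 35 members. Of these, 18 held the response element letters (72.0%), against 1079 of 27025 genes in the table (3.99%). The letters TTCNNNGAA, a form of the gamma-activated site, were in the windows of 6 of the 25 members (24%) and of 9.55% of all genes. Those 7 of the 25 without the response element letters were Irf7, Irf9, Ifit2, Oasl1, Oasl2, Xaf1 and Ifi44. No table entry was found for Usp18, Mx1, Mx2, Oas2, Ifi27, Dhx58, Rtp4, Iigp1, Parp14 and Zbp1.

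Levels per kilobase of exon spanned a wide range in the chow control livers. Bst2, encoding the tether that holds budding virions at the cell surface, was highest at 153 CPM per kb. Ifi27, encoding a small mitochondrial protein, followed at 92.1 CPM per kb, and Iigp1, a GTPase that attacks parasite vacuoles, at 64.4 CPM per kb. The factor Irf7, which drives interferon gene transcription, had 16.1 CPM per kb, and Isg15 had 12.8 CPM per kb. At the low end were Oas3 (0.153 CPM per kb), which makes the oligoadenylates that switch on RNase L, the GTPase Mx1 (0.318 CPM per kb) and Oas2 (0.427 CPM per kb).

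Some pairs share sequence and are uncertain as single genes. Of the 50-base words of Oas1a, 57.6% also occur in Oas1g, and of those of Ifit3 51.2% occur in Ifit3b. Igtp and Irgm2 overlap on the genome, and Rtp4 and Gbp7 each overlap a predicted gene over 13.9% and 11.3% of their exon bases. Usp18 and Dhx58 overlap antisense genes over 4.4% and 4.3% of their exon bases, and the strand setting of the counting is not given in the sources used here.

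**Figure D1:**
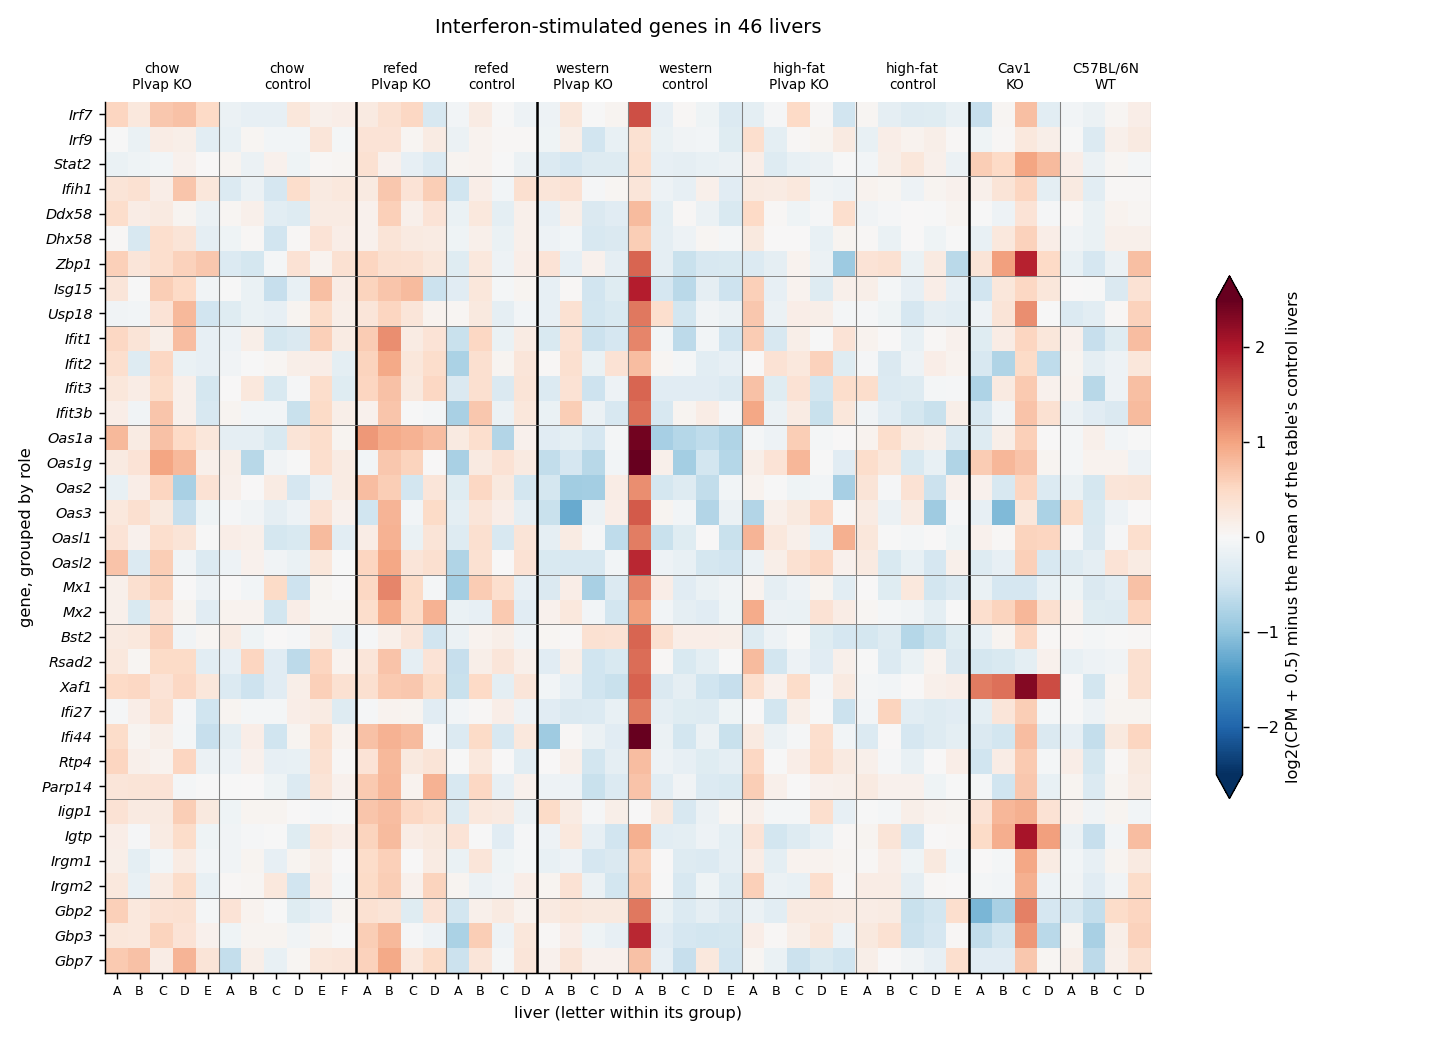
Each cell gives log2(CPM + 0.5) of 1 gene (rows, grouped by role) in 1 of 46 livers (columns, lettered within their group) minus the mean of the control livers of the same table; thick lines separate the 4 tables. Liver A of the western-diet controls is red in nearly every row, Iigp1 excepted, and liver C of the Cav1 KO group is red in most.

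To give each liver 1 value, the log2 CPM of each member was set against the mean of the table's control livers and averaged over the members (for the diet table, over all 10 controls of both diets). Chow Plvap KO livers stood at 0.22 ± 0.19 (n = 5), against 0.00 ± 0.17 in chow controls (n = 6). Refed Plvap KO livers stood at 0.42 ± 0.23, against 0.00 ± 0.29 in refed controls (n = 4 each). In both experiments the groups overlapped: the lowest chow KO liver was at -0.06 and the highest chow control at 0.31, and the lowest refed KO liver at 0.26 and the highest refed control at 0.32. The labels give no pairing, and the refed livers were taken as paired by letter from correlations in these same data (r = 0.221 to 0.271). Apart from the replicate block, the tests of these livers were unpaired. By letter the values were 0.43 in KO A and -0.38 in control A, 0.74 in KO B and 0.32 in control B, 0.26 in KO C and -0.02 in control C, and 0.26 in KO D and 0.08 in control D. Since the pairing was drawn from these same data, the order within a letter is not taken as support for a difference.

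On western diet the mean was -0.16 ± 0.13 in Plvap KO livers (n = 4) and 0.05 ± 0.68 in controls (n = 5). The control mean rests on liver A at 1.27, since the other 4 lay between -0.31 and -0.15, and without A it was -0.25 ± 0.07. On high-fat diet the mean was 0.06 ± 0.14 in Plvap KO livers and -0.05 ± 0.10 in controls (n = 5 each), with no liver apart. The Cav1 KO mean of 0.20 ± 0.41 holds liver C at 0.80 and was -0.00 ± 0.09 without it, against 0.00 ± 0.29 in wild types (n = 4 each), whose liver D stood at 0.37. The gap test passed for liver A of the western-diet controls (ratio 0.901) and in no other group, with 0.821 for the Cav1 KO group.

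**Figure D2:**
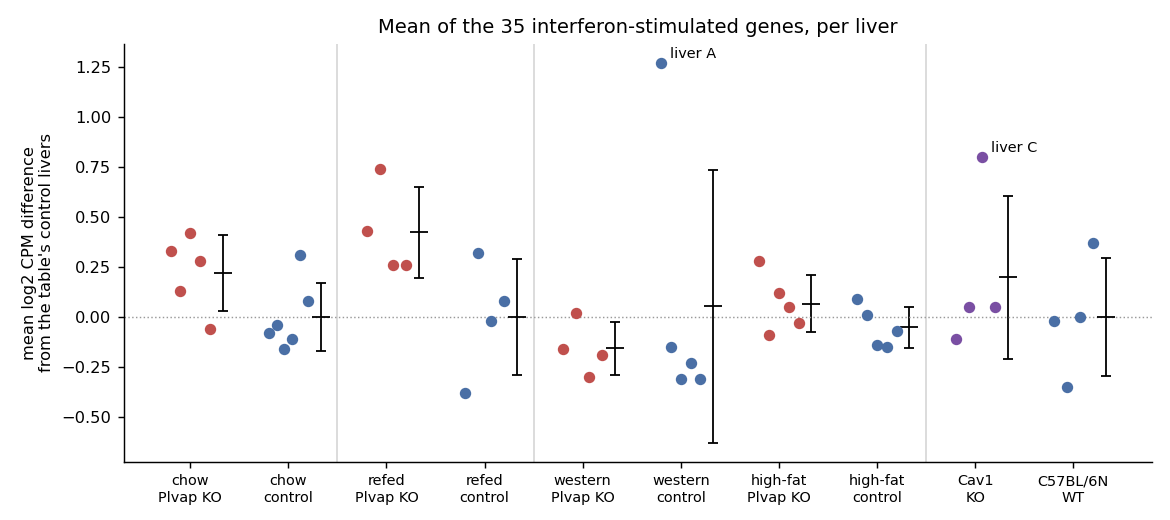
Points are single livers, and the vertical axis is the mean over the 35 genes of log2 CPM minus the mean of the control livers of the same table; bars beside the points are group means with SD, and vertical lines separate the tables. Western-diet control A at 1.27 and Cav1 KO C at 0.80 lie above every other liver of their groups.

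The western-diet control A was described in more depth because it sets the mean of its group. In it the members stood at a median of 2.9 times the mean of the other 4 livers, and 24 of 35 were above 2 times. The OAS family was highest, with a median ratio of 4.41 over 6 genes. Oas1a, a synthase of the RNase L activator, had 24.1 CPM in A and 2.09 to 2.47 CPM in the other 4 livers, a ratio of 10.5. Oas1g had a ratio of 9.55, Ifi44, an interferon-induced microtubule-associated protein, 8.3, and the ubiquitin-like Isg15 5.51.

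The transcription factors were split in liver A. Irf7 had 267 CPM there and 67.8 to 88.6 CPM in the other 4 (ratio 3.43), while Stat2 and Irf9 had ratios of 1.53 and 1.45. Among the sensors Zbp1, which detects Z-form nucleic acid, had a ratio of 3.66 and Ifih1, the sensor of long double-stranded RNA, 1.35. Among the guanylate-binding proteins, which coat intracellular pathogens, Gbp3 had a ratio of 5.13. Iigp1 was the exception with 540 CPM in A, below the highest of the others at 628 CPM (ratio 1.04). Members with the response element letters in their window had a median ratio of 2.9 (18 genes) and those without 3.43 (7 genes).

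**Figure D3:**
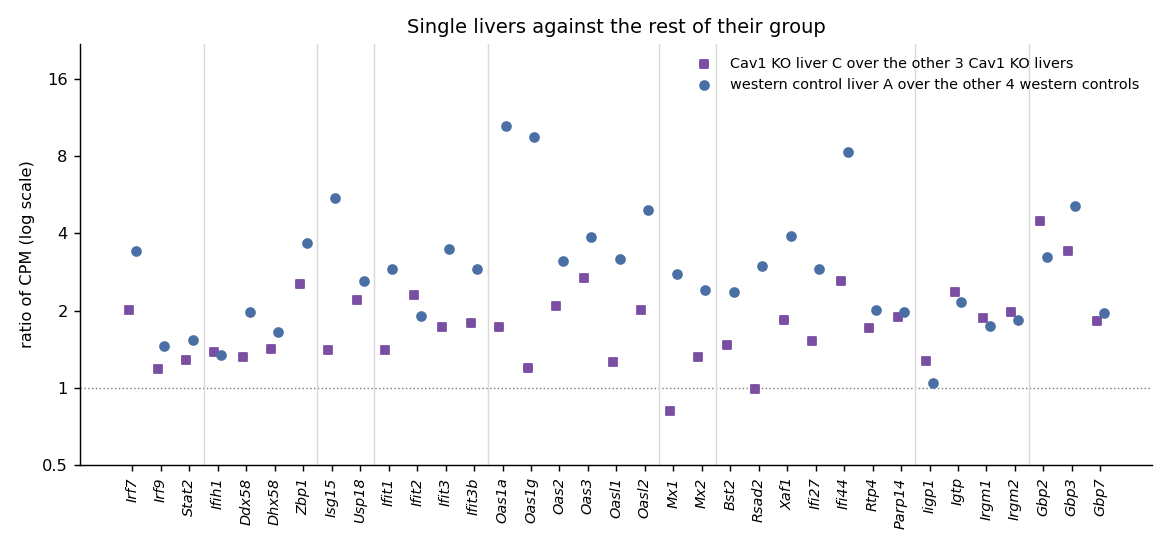
Points give, for each gene (grouped by role), the CPM of 1 liver over the mean of the other livers of its group on a log axis: squares, Cav1 KO liver C over the other 3; circles, western-diet control A over the other 4. Circles run up to 10.5 for Oas1a and squares to 4.48 for Gbp2, and the dotted line marks a ratio of 1.

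Genes outside the 35 stood high in liver A too. Of 51 other interferon-induced genes, 47 were above every other western-diet control (median ratio 2.09), among them Ly6e, a membrane protein, with 929 CPM in A against 103 to 162 CPM. Of 25 measured genes of interferon gamma response and antigen presentation, 23 were (median ratio 1.82). The summed level of 16 interferon genes themselves was 0.423 CPM in A and at most 0.0747 CPM in the others, with Ifnb1 at 0 in all 5. Such low sums were not particular to A. Refed control A, at -0.38 in the mean over the members, had 0.539 CPM, and high-fat control A, at 0.09, had 0.397 CPM.

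Several markers of other cells also stood higher in A. The 10 Kupffer cell markers summed to 1170 CPM in A and 603 to 884 CPM in the other 4, with 7 of 10 above every other liver. Marco, a macrophage scavenger receptor, had 72.4 CPM against 4.41 to 7.24 CPM, while the Kupffer cell lectin Clec4f had 235 CPM against 204 to 298 CPM. The 6 B cell markers summed to 98.4 CPM against 18.9 to 25.7 CPM, and 10 T and NK cell markers to 14.4 CPM against 4.59 to 7.02 CPM. The adrenal steroid hydroxylase Cyp21a1, named after its values were seen, had 36.7 CPM in A and 0.0665 to 0.448 CPM in the others, and the steroidogenic transporter Star, named in the same way, had 24.9 CPM against 0.706 to 1.83 CPM. The part of any of these in the levels of the members was not tested.

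In chow livers after a 12 h fast, 1 of 35 members was called between Plvap KO and control, Irf7, which rose by 0.54 ± 0.11 (adjusted p = 0.0190). The background was 1.13% of 12840 genes called higher and 1.12% called lower. Irf7 had 88.2, 72.8, 96.6, 100 and 85.9 CPM in KO livers, against a lowest of 52.0, a median of 59.9 and a highest of 73.2 CPM in the 6 controls. The lowest KO liver (B) lay just under the highest control (D), and the other 4 KO livers lay above all controls. The call was lost without control C (adjusted p = 0.0523) or without KO D (adjusted p = 0.053).

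No other member was called in the chow livers in the main fit of edgeR's quasi-likelihood test. The same test also called Ifih1, Zbp1 and Gbp7, both with no filter and with the replicate block. DESeq2 also called Iigp1, Zbp1 and Gbp7 and limma-voom also called Iigp1 and Zbp1. All of these were higher. Over all members, log2 fold changes were above 0 for 32 of 35, with a median of 0.18 against -0.01 over all genes tested. That median was 0.11 without KO C and 0.27 without KO E. In all, 8 members had an unadjusted p under 0.05, all higher, against 9.01% of all genes higher and 8.61% lower. The 3 guanylate-binding proteins stood at 0.34 to 0.56, the 6 OAS genes at 0.08 to 0.68 and the 4 sensors at 0.05 to 0.50. The 3 factors had a median of -0.02, since Irf9 and Stat2 did not follow Irf7.

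Iigp1 had the next smallest p in the chow livers. It had 480, 436, 440, 573 and 441 CPM in KO livers, against 348 to 393 CPM in controls with a median of 375 CPM. The livers did not overlap, which held for 1.25% of all genes in this direction, and the call on the difference of 0.34 ± 0.09 depended on the tool (adjusted p = 0.0617 with edgeR's quasi-likelihood test, 0.00437 with DESeq2 and 0.0432 with limma-voom). Zbp1 had 20.8, 17.0, 18.4, 20.5 and 22.1 CPM in KO livers, against 9.98 to 17.9 CPM in controls with a median of 13.8 CPM. Its difference of 0.50 ± 0.15 did not pass in the main fit of edgeR's quasi-likelihood test (adjusted p = 0.0837). It passed with DESeq2 (0.0422), limma-voom (0.0307), and edgeR's test with no filter (0.0019) or with the replicate block (0.0109). KO liver B lay below the highest 2 controls. Gbp3 was the other member without overlap (7.76 ± 0.924 CPM in KO livers and 6.15 ± 0.376 CPM in controls, adjusted p = 0.139).

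Markers of some other cells stood higher in the chow KO livers and those of others did not. The Kupffer cell markers summed to 734 to 1040 CPM in KO livers and 532 to 821 CPM in controls, with 9 of 10 log2 fold changes above 0 and none called. The hepatocyte markers summed to 71100 to 90200 CPM in KO livers and 39600 to 52200 CPM in controls, led by Alb, and the B cell gene Igkc was called higher (0.61 ± 0.15). Neutrophil markers had a median log2 fold change of 1.77 (3 of 3 tested above 0), with sums of 7.44 to 49.9 CPM in KO livers and 3.5 to 13.2 CPM in controls, red blood cell markers one of 0.86 (4 of 5) and T and NK cell markers one of 0.48 (4 of 4), none of them called. The cholangiocyte markers had a median log2 fold change of -0.69 (1 of 4 above 0, none called), and the liver endothelial markers one of -0.04, with Lyve1 called higher. Their part in the levels of the members was not tested.

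**Figure D4:**
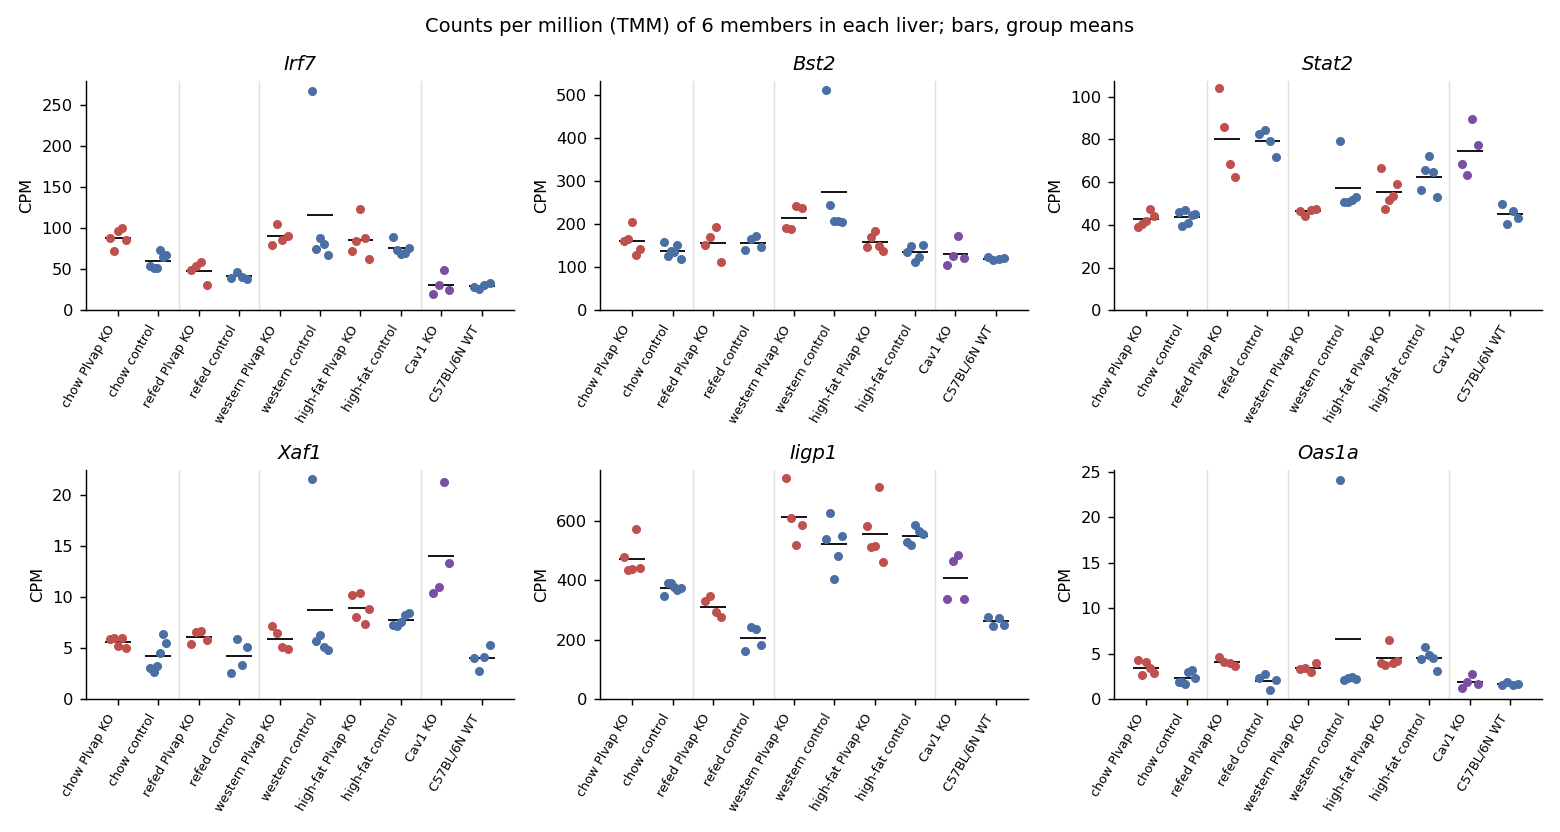
CPM of 6 members in each of 46 livers, with group means as bars and vertical lines between the 4 tables. Irf7 is higher in chow Plvap KO than in control livers, Xaf1, Stat2 and Iigp1 are higher in Cav1 KO than in wild-type livers, and western-diet control A stands apart for Irf7, Bst2, Stat2, Xaf1 and Oas1a but not for Iigp1.

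In refed livers no member was called between Plvap KO and control in the main fit of edgeR's quasi-likelihood test, by DESeq2 or by limma-voom. Of 13228 genes, 0.0% were called higher and 0.0227% lower in the main fit. With no filter, edgeR's test called Parp14 and Iigp1, both higher. Of the members, 12 had an unadjusted p under 0.05, all higher, against 4.61% of all genes higher and 3.13% lower. Log2 fold changes were above 0 for 34 members, with a median of 0.41 against 0.01 over all genes tested. The Mx genes stood at 0.68 and 0.69, the IFIT genes at 0.13 to 0.60 and the immunity-related GTPases at 0.33 to 0.59. Ifi27 was the exception at -0.04, and Bst2 stood at 0.00.

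Iigp1 had the smallest p of the members after refeeding. It had 332, 346, 293 and 277 CPM in KO livers, against 162, 244, 237 and 184 CPM in controls, a difference of 0.59 ± 0.15 (adjusted p = 0.387). Oas1a had 4.69, 4.14, 3.96 and 3.64 CPM in KO livers, against 2.35, 2.75, 0.957 and 2.11 CPM in controls (0.99 ± 0.29, adjusted p = 0.451). Neither gene overlapped between the groups, nor did Zbp1 (8.07 ± 0.616 CPM in KO livers and 6.08 ± 1.20 CPM in controls), and 3.12% of all genes were without overlap in this direction. Irgm2, an immunity-related GTPase that guards host membranes, had 57.9, 63.4, 44.4 and 60.9 CPM in KO livers, against 43.2, 37.3, 38.8 and 46.4 CPM in controls, with KO C inside the control range (0.45 ± 0.13, adjusted p = 0.470). The hepatocyte markers summed to 93600 to 104000 CPM in refed KO livers and 59200 to 70700 CPM in refed controls, and the Kupffer cell markers to 440 to 519 CPM in refed KO livers and 344 to 501 CPM in refed controls. Median log2 fold changes were 0.08 for the hepatocyte markers (4 of 5 above 0) and 0.17 for the Kupffer cell markers (9 of 10). None of these markers was called. Their part in the levels of the members was not tested.

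On western diet no member was called between Plvap KO and control by edgeR's quasi-likelihood test, by DESeq2 or by limma-voom, where 0.00739% of 13533 genes were called in each direction. With all livers, only 5 members had a log2 fold change above 0, the median was -0.35 against -0.02 over all genes, and 5 members had an unadjusted p under 0.05, all lower, against 3.81% of all genes higher and 5.99% lower. This direction rests on control A. Without it 24 members were above 0 and 11 below, with a median of 0.09. The OAS genes stood at a median of -0.86 with all livers and 0.01 without A, and the 7 other effectors at -0.53 and -0.01. With all livers, hepatocyte markers summed to 53000 to 76400 CPM in KO livers and 36100 to 51100 CPM in controls. Their median log2 fold change was 0.18 (3 of 5 above 0, none called). The 4 tested neutrophil markers had a median of 1.03 and the 5 red blood cell markers one of 0.65, all above 0 and none called. The 6 neutrophil markers summed to 7.42 to 60.2 CPM in KO livers, with a median of 13.1 CPM and the highest in KO A. In controls they summed to 4.68 to 14.3 CPM with a median of 11.3 CPM. Whether these markers had a part in the levels of the members was not tested.

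Single members on western diet showed the same dependence. Stat2, a factor of the type I response, had 46.6, 44.0, 47.2 and 47.4 CPM in KO livers, against 79.1, 50.9, 50.7, 51.6 and 53.1 CPM in controls. Every KO liver was below every control, as for 1.67% of all genes in this direction, but the difference was -0.30 ± 0.13 (adjusted p = 0.466) with A and -0.16 ± 0.11 (adjusted p = 0.704) without it. Dhx58, encoding the regulatory sensor LGP2, had 15.6, 16.4, 12.9 and 13.2 CPM in KO livers, against 26.7, 14.6, 15.6, 17.7 and 16.6 CPM in controls. The groups overlapped, and the difference was -0.33 ± 0.15 with A (adjusted p = 0.473) and -0.15 ± 0.11 without it. Mx1 had 1.86, 2.87, 1.22 and 1.89 CPM in KO livers, against 6.53, 2.91, 1.97, 2.21 and 2.33 CPM in controls. Here too the groups overlapped, at -0.71 ± 0.32 with A (adjusted p = 0.480) and -0.26 ± 0.25 without it.

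On high-fat diet no member was called between Plvap KO and control by edgeR's quasi-likelihood test, DESeq2 or limma-voom, where 0.2% of 13533 genes were called higher and 0.0813% lower. In edgeR's fit none had an unadjusted p under 0.05 (7.05% of all genes were higher and 6.79% lower by that rule). Western-diet control A entered the spread shared by the 4 diet groups, and 30 members but only 5.26% of all genes passed the gap test in it. The members and all genes are therefore not alike in this count. The fit on only the high-fat groups also called no member. Log2 fold changes were above 0 for 27 members with a median of 0.15, which was 0.02 without KO A, the highest liver of its group for 19 members. Hepatocyte markers summed to 65100 to 96800 CPM in KO livers and 35500 to 43300 CPM in controls, with Alb called higher (1.13 ± 0.17). Their median log2 fold change was 0.45 (4 of 5 above 0). All 6 B cell markers were above 0, with Cd79a called higher (1.81 ± 0.38). All 4 tested neutrophil markers were above 0 (median 1.86), none of them called. The 6 neutrophil markers summed to 5.88 to 118 CPM in KO livers, with a median of 10.7 CPM and the highest in KO B. In controls they summed to 7.25 to 12.0 CPM with a median of 10.3 CPM. Their part in the levels of the members was not tested. Gbp7 had 20.2, 17.3, 13.2, 14.9 and 13.6 CPM in KO livers, against 21.7, 19.7, 18.2, 16.8 and 26.1 CPM in controls (-0.37 ± 0.20, adjusted p = 0.432). Ifit3b, which binds viral RNA with its relatives, had 7.52, 3.22, 4.23, 2.28 and 4.51 CPM in KO livers, against 3.34, 2.89, 2.53, 2.27 and 4.01 CPM in controls (0.55 ± 0.35, adjusted p = 0.516). Both pairs of groups overlapped. Mx2 overlapped as well, with 10.9, 4.93, 4.80, 7.23 and 6.32 CPM in KO livers, against 5.72, 5.28, 5.14, 4.55 and 5.45 CPM in controls (0.39 ± 0.26, adjusted p = 0.535).

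Between the diets in control livers, 1 of 35 members was called, Bst2, which was higher on western than on high-fat diet by 1.03 ± 0.20 (adjusted p = 0.00869). The background was 1.1% of 13533 genes called higher and 0.99% lower. Bst2 had 511, 244, 208, 207 and 204 CPM in western-diet controls, against 136, 149, 113, 125 and 151 CPM in high-fat controls. Every western-diet liver lay above every high-fat liver, as for 2.22% of all genes in this direction, and liver A was more than 2 times the next. Without A the difference was 0.69 ± 0.11 (adjusted p = 0.00226), and leaving out any other liver kept the call (adjusted p at most 0.0343). Fitted on these 2 groups alone it did not pass (adjusted p = 0.0577). In the same comparison, with all livers, liver endothelial markers had a median of -0.26 (0 of 6 above 0), with Clec4g called lower (-0.72 ± 0.13, adjusted p = 0.00486), and B cell markers one of 0.72 (6 of 6 above 0, none called). The B cell markers summed to 98.4 CPM in liver A and 18.9 to 25.7 CPM in the other western-diet controls. In high-fat controls they summed to 13.8 to 24.1 CPM. Their part in the levels of the members was not tested.

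No other member was called between the diets in control livers with all livers included. With all livers 2 had an unadjusted p under 0.05, both higher, against 7.95% of all genes higher and 7.2% lower, and 27 of 35 were above 0 with a median of 0.19. Without A 6 were above 0 and 29 below with a median of -0.24. Ifi44 had 46.5, 6.35, 5.05, 6.35 and 4.65 CPM in western-diet controls, against 5.48, 7.13, 5.14, 5.54 and 5.88 CPM in high-fat controls. Apart from A the livers overlapped, at 1.24 ± 0.54 with A (adjusted p = 0.282) and -0.06 ± 0.19 without it. Usp18, the protease that removes ISG15 and dampens receptor signalling, had 61.9, 32.6, 17.6, 22.9 and 22.1 CPM in western-diet controls, against 23.8, 22.6, 18.0, 20.8 and 20.3 CPM in high-fat controls (0.58 ± 0.28, adjusted p = 0.334, with A, and 0.18 ± 0.20, adjusted p = 0.698, without it). Western-diet livers A and B lay above all high-fat controls and liver C below them. Oas1a turned round: at 2.09 to 2.47 CPM in the western-diet controls other than A and 3.15 to 5.78 CPM in high-fat controls, it was lower on western diet, at -0.99 ± 0.20 without A (adjusted p = 0.00883) and not called with it (adjusted p = 0.715).

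**Figure D5:**
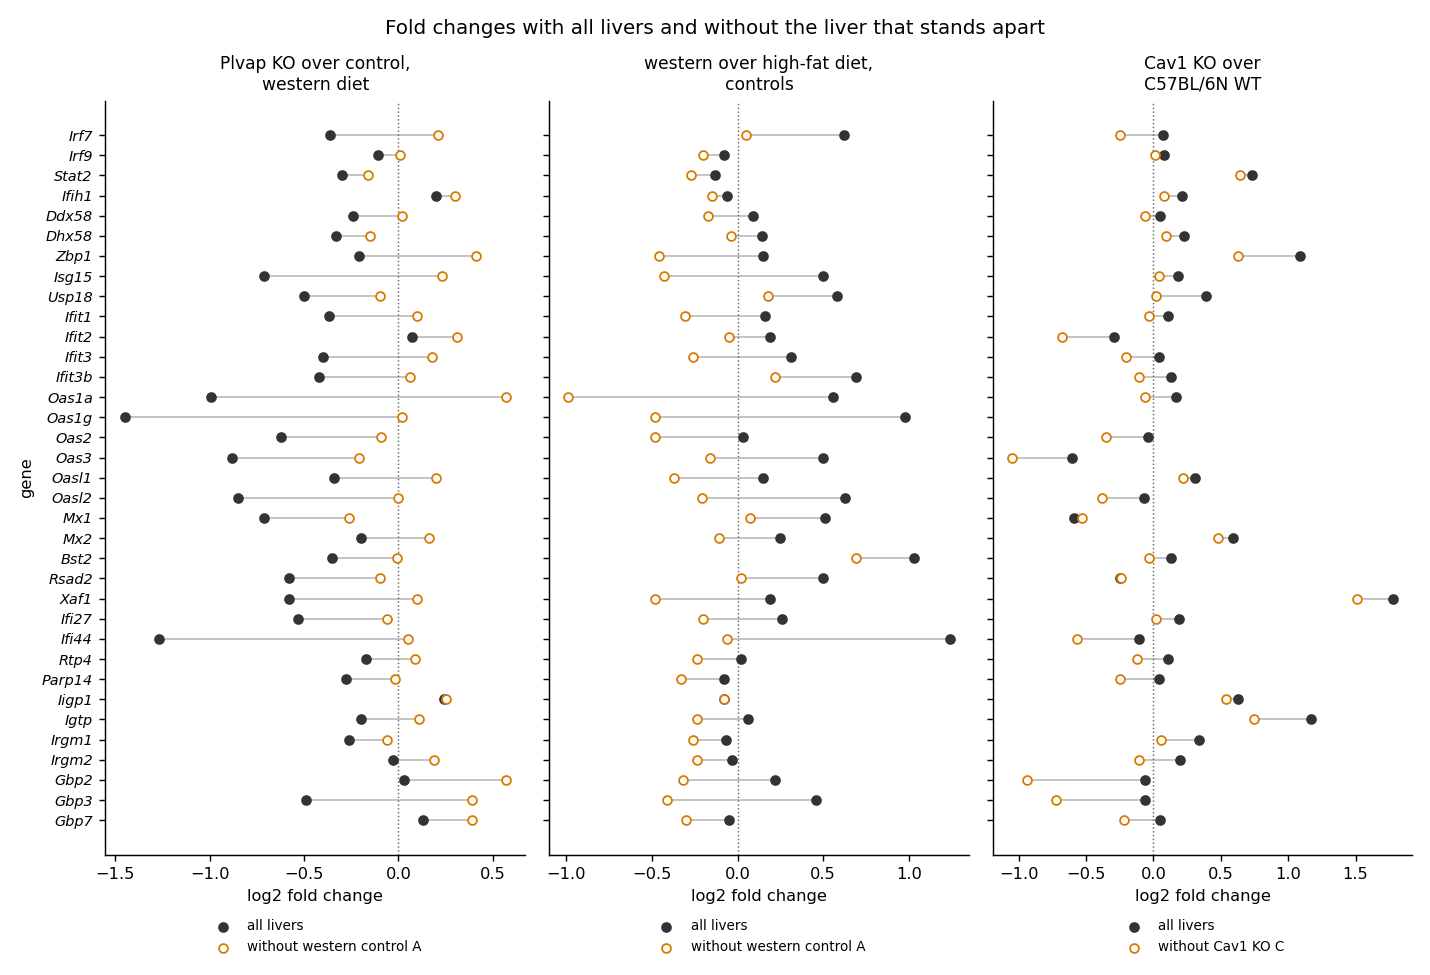
Log2 fold change of each gene in 3 comparisons, with all livers (filled) and without the liver that stands apart (open): western-diet control A in the first 2 panels, Cav1 KO C in the last. In the first 2 panels most genes cross the dotted line at 0 when A is left out, while Bst2 stays above 0 between the diets; Xaf1, Stat2 and Iigp1 stay above 0 in the Cav1 panel.

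Between the diets in Plvap KO livers, which do not include control A, no member was called in the main fit of edgeR's quasi-likelihood test or by DESeq2. With the replicate block edgeR's test called Parp14, lower, and limma-voom called 4 (Bst2 higher, Xaf1, Rtp4 and Parp14 lower). Liver A still entered the estimate of spread shared by the 4 diet groups, and the fit on only the KO groups called 2 (Bst2 higher, Xaf1 lower). Of all genes, 4.43% were called higher and 4.01% lower. Log2 fold changes were below 0 for most members (7 of 35 above 0, median -0.30 against -0.04 over all genes and -0.15 without high-fat KO A), and 2 members had an unadjusted p under 0.05 in each direction, against 12.8% of all genes higher and 14.0% lower. Liver endothelial markers had a median of -0.39 in the same comparison (1 of 6 above 0), with Clec4g and Kdr called lower, and the T cell gene Cd4 and the stellate cell gene Ecm1 were called lower. Neutrophil markers had a median of -0.64 (0 of 4 above 0, none called). Their sums had a median of 13.1 CPM on western and 10.7 CPM on high-fat diet. The highest sums were 60.2 CPM in western-diet KO A and 118 CPM in high-fat KO B. Their part in the levels of the members was not tested. Parp14, an ADP-ribosyltransferase, had 23.5, 23.7, 17.3 and 20.4 CPM in western-diet KO livers, against 40.0, 28.3, 26.0, 27.9 and 28.4 CPM in high-fat KO livers. No livers overlapped, as for 5.91% of all genes in this direction, and the difference was -0.51 ± 0.19 (adjusted p = 0.0861). Rtp4, a receptor-transporting protein, had 23.2, 25.2, 16.6 and 19.5 CPM in western-diet KO livers, against 33.3, 22.8, 25.9, 31.4 and 26.9 CPM in high-fat KO livers, with an overlap (-0.41 ± 0.19, adjusted p = 0.168).

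Gbp7 and Bst2 stood above 0. Gbp7 had 20.9, 24.4, 20.9 and 20.9 CPM in western-diet KO livers, against 20.2, 17.3, 13.2, 14.9 and 13.6 CPM in high-fat KO livers (0.46 ± 0.21, adjusted p = 0.175). Bst2 had 192, 189, 242 and 237 CPM in western-diet KO livers, against 148, 170, 183, 150 and 138 CPM in high-fat KO livers. It stood at 0.45 ± 0.21 (adjusted p = 0.183), so the direction seen in controls was present without the call. For neither gene did the livers overlap, as for 6.81% of all genes in this direction.

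Whether the Plvap effect differed between the diets was tested as an interaction. No member was called by edgeR's quasi-likelihood test, DESeq2 or limma-voom, and 0.0% of 13533 genes were. At an unadjusted p under 0.05, 2 members were lower, against 5.48% of all genes higher and 5.95% lower. With all livers the median of the members was -0.55 and 4 of 35 were above 0, and without control A the median was -0.06 and 15 were above 0. Without high-fat KO A the median was -0.34. The smallest p belonged to Usp18, at -0.90 ± 0.40 (adjusted p = 0.410) with all livers and -0.48 ± 0.28 without A. Usp18 had 21.0, 31.8, 17.6 and 18.7 CPM in western-diet KO livers and 39.2, 22.1, 27.3, 27.0 and 23.5 CPM in high-fat KO livers. Dhx58 stood at -0.42 ± 0.20 (adjusted p = 0.430) with all livers and -0.23 ± 0.15 without A, and Oasl2, an OAS-like protein, at -1.19 ± 0.58 (adjusted p = 0.445) and -0.32 ± 0.26. Oasl2 had 4.10, 4.04, 4.04 and 5.17 CPM in western-diet KO livers, against 21.4, 4.93, 4.75, 3.88 and 3.79 CPM in their controls.

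In Cav1 KO livers 3 of 34 tested members were called against C57BL/6N wild types, all higher, where 2.57% of 12978 genes were called higher and 2.11% lower. Oas1g was not tested because of its low counts (0.924 CPM in KO and 0.448 CPM in wild-type livers on average). Xaf1, a pro-apoptotic zinc-finger protein, rose by 1.78 ± 0.27 (adjusted p = 0.00363). It had 10.4, 11, 21.2 and 13.3 CPM in Cav1 KO livers, against 4, 2.74, 4.09 and 5.33 CPM in wild types. Stat2 rose by 0.73 ± 0.12 (adjusted p = 0.00547), with 68.7, 63.4, 89.3 and 77.5 CPM in Cav1 KO livers, against 50, 40.3, 46.4 and 43.1 CPM in wild types. Neither gene overlapped between the groups, and without liver C they stood at 1.51 ± 0.21 and 0.64 ± 0.11, still called.

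Iigp1 rose by 0.63 ± 0.13 in Cav1 KO livers (adjusted p = 0.0222). It had 339, 467, 486 and 339 CPM in Cav1 KO livers, against 278, 248, 274 and 251 CPM in wild types. The livers did not overlap, as for 6.77% of all genes in this direction, but leaving out any 1 of the 4 wild types ended the call (adjusted p = 0.0579 to 0.0738). Its relative Igtp had 40.7, 54.5, 122 and 59.7 CPM in Cav1 KO livers, against 26.2, 19.3, 27.5 and 49.9 CPM in wild types, and did not pass (1.17 ± 0.42, adjusted p = 0.191, with liver C, and 0.75 ± 0.32, adjusted p = 0.245, without it).

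The other members were not called in the Cav1 KO livers by edgeR's quasi-likelihood test, except that without a filter on low counts Zbp1 was called higher (1.06, adjusted p = 0.00191, against 0.221 with the filter). In all, 6 members had an unadjusted p under 0.05, all higher, against 9.56% of all genes higher and 9.05% lower. Of the 34 tested, 25 were above 0 with a median of 0.12, and without liver C 14 were above 0 and 20 below with a median of -0.06. The median was also moved by other single livers, to 0.25 without KO A, 0.02 without wild type B and 0.21 without wild type D. Without C the 3 guanylate-binding proteins stood at -0.94 to -0.22 and the IFIT genes at -0.68 to -0.03. Liver C had the fewest counts of its table (10902551), 9 of 10 Kupffer cell markers above every other KO liver (median ratio 1.64), and hepatocyte markers that summed to 80600 CPM against 101000 to 114000 CPM. Over the groups, hepatocyte markers summed to 80600 to 114000 CPM in Cav1 KO livers and 60600 to 71600 CPM in wild types, and 10 of 10 Kupffer cell markers had a log2 fold change above 0, none of them called. Cxcl9, a chemokine induced by interferon gamma, had 42.6 CPM in C against 3.13 to 6.41 CPM. Their part in the levels of the members was not tested.

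Levels across the tables can be set side by side only, since each table was normalised on its own and table and diet cannot be told apart. Western-diet controls had a higher mean than chow controls for all 35 members with A and for 33 without it, with median ratios of 1.9 and 1.34, against 1.04 over all genes. With A included, 12 members had every western-diet control above every chow control, against 1.99% of all genes. They were Stat2, Ifit2, Ifit3, Mx1, Mx2, Oas2, Bst2, Dhx58, Iigp1, Irgm1, Gbp3 and Parp14. Liver A was not the lowest western-diet control for any member, so leaving it out could not change this list. High-fat controls had a higher mean than chow controls for 34 members (median ratio 1.56), with 16 members above in every liver (4.84% of all genes) and Bst2 alone lower, at 135 ± 15.9 CPM in high-fat and 138 ± 14.8 CPM in chow controls.

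In Plvap KO livers 33 members had a higher mean on western diet and 31 on high-fat diet than on chow, with median ratios of 1.21 and 1.52. Every liver was above in 4 and 7 members, against 6.43% and 7.15% of all genes. Refed controls were above chow fasted controls in every liver for 5 members (Stat2, Oasl1, Ddx58, Irgm1 and Parp14), against 30.4% of all genes, and below for Irf7, Iigp1 and Zbp1, against 9.39%. Refed KO livers were above chow KO livers in every liver for 7 members, against 30.4% of all genes, and below for the same 3, against 9.38%. Stat2 averaged 79.4 CPM in refed controls and 43.9 CPM in chow fasted controls, and Irf7 averaged 41.5 CPM in refed controls and 60.9 CPM in chow fasted controls.

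Bst2 lies 22.5 kb from Plvap on chromosome 8 of GRCm39 (Bst2 at 71986899 to 71990100, Plvap at 71950409 to 71964396). Bst2 was not called in any of the 4 Plvap KO comparisons. Its log2 fold change was 0.21 on chow, 0.00 after refeeding, -0.35 on western diet (-0.01 without control A) and 0.23 on high-fat diet.

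Upstream of the members, none of 16 interferon genes reached 1 CPM in any liver or was tested. Of 16 sensor, adaptor and kinase genes that are not members (13 tested on chow), Irf5, a factor that drives inflammatory cytokines, was called higher in chow Plvap KO livers (18.3 ± 1.82 CPM, against 12.2 ± 1.38 CPM in controls, adjusted p = 0.00949). Of 11 negative regulators (10 tested) the RNA editor Adar was called lower on western than on high-fat diet in KO livers (9.89 ± 2.46 and 16.7 ± 3.27 CPM, adjusted p = 0.0241). By the same rule 1.13% of all genes were called higher in chow Plvap KO livers and 4.01% lower between the diets in KO livers.

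Of 51 further interferon-induced genes, all of them tested, few were called. Of all genes, 1.13% were called higher and 1.12% lower in chow Plvap KO livers. In Cav1 KO livers the shares were 2.57% and 2.11%, and 4.01% were called lower on western than on high-fat diet in KO livers. Tor3a was lower in chow Plvap KO livers (9.35 ± 2.32 CPM, against 18.9 ± 3.08 CPM in controls, adjusted p = 0.00355). Pml, the organiser of nuclear bodies, and Parp10, an ADP-ribosyltransferase, were lower on western than on high-fat diet in KO livers (-0.57 ± 0.16, adjusted p = 0.034, and -0.50 ± 0.13, adjusted p = 0.0208). In Cav1 KO livers Ifi35 was higher (0.53 ± 0.11, adjusted p = 0.0171) and Slfn8 lower (-1.43 ± 0.29, adjusted p = 0.0194). The median of the 51 genes was 0.13 in chow and 0.28 in refed Plvap KO livers and 0.04 in Plvap KO livers on high-fat diet. On western diet it was -0.15 with all livers, with 12 of 51 above 0. That value includes control A, in which 47 of the 51 were above every other western-diet control. Among 25 tested genes of interferon gamma response and antigen presentation, the immunoproteasome subunit Psmb10 was called higher in chow Plvap KO livers (0.62 ± 0.14), and the peptide transporter Tap1 lower on western than on high-fat diet in KO livers (-0.51 ± 0.15).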

How the data were processed

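Bulk RNA-seq of 46 livers in 10 groups was deposited as 4 tables of raw read counts per gene, made by the authors for each experiment on its own. Per the submitters' processing notes the tools were FastQC 0.11.9, MultiQC 1.10.1, STAR 2.7.8a and featureCounts 2.0 with GRCm39; the annotation release and the strand setting are not given in the sources used here. Gene lengths and coordinates were used as deposited, per the file headers. Symbols were found for 94.0% of 55416 gene IDs. All count columns were used, and none of 85 pairs of livers within a group held identical counts.

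Members and gene lists were chosen with earlier results of these data known. The list of receptors and proximal signalling genes is not reported here. Counts were scaled by TMM within each table and tested with edgeR 4.0.16 (R 4.3.3; quasi-likelihood F-test, robust, filterByExpr with a minimum count of 10 and a total of 15), with Benjamini-Hochberg adjustment over all genes tested and a threshold of 0.05. The 4 diet groups were fitted together. Alternatives were limma 3.58.1 (voom with quality weights), DESeq2 1.42.0, its size factors in edgeR, other filters, a removed length trend, a replicate block and leaving out each liver. The fit was tested on simulated data. Values per liver are given for every called member and, where fewer than 3 were called, for the 3 members with the smallest p. Counting error depends on total counts, and PCR reads without molecular identifiers are not independent molecules.

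The replicate letters shared between groups were checked by correlating the deviations of same-lettered livers from their group means. In the refed table all 4 pairs correlated (r = 0.221 to 0.271) and were taken as paired; the labels do not say what a letter marks. In the other comparisons not every pair did. Promoter windows came from RefSeq (GRCm38.p6), and shared words of 50 bases from GENCODE transcripts of that earlier build. Python 3.11.15, pandas 2.3.3, numpy 2.4.6 and matplotlib 3.10.9 were used.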

Additional observations from a re-analysis of the deposited data

Results flagged for a closer look

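In each group, the highest or lowest liver was compared with its nearest neighbour by Dixon's gap test for every member. Of 350 member and group pairs, 53 passed. Members measured in the same liver are not independent, so this count cannot be set against the nominal rate of about 1 in 20. The western-diet controls held 30 of the 53, and all 30 were liver A, where 5.26% of all genes passed.

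Western-diet control A was far above the other 4 livers in CPM for the factors Irf7 (267), Irf9 (54.6) and Stat2 (79.1), for Isg15 (60.5), and for the IFIT genes Ifit1 (58.6), Ifit2 (13.9), Ifit3 (42.3) and Ifit3b (10.2). The same held for Mx1 (6.53) and Mx2 (11.6) and for Oas1a (24.1), Oas1g (16.6), Oas2 (10.3), Oas3 (7.44), Oasl1 (24.7) and Oasl2 (21.4). Among the other effectors and sensors it held for Bst2 (511), Xaf1 (21.5), Rsad2 (55.6), Ifi27 (442), Ifi44 (46.5), Rtp4 (39.5), Parp14 (42.4), Ddx58 (31.9), Dhx58 (26.7) and Zbp1 (60.4). Among the GTPases it held for Igtp (70.2), Irgm2 (65.3), Gbp2 (14.9) and Gbp3 (41.9). The mean over the members was flagged there too, at 1.27 on the log2 scale.

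In Cav1 KO livers the highest liver was far from the rest for Oasl2 (6.55 CPM), Ifi44 (4.28 CPM), Irgm2 (112 CPM), Gbp2 (15.9 CPM) and Gbp3 (15.3 CPM), all in liver C. In wild types it was for Ifit3b (4.10 CPM), Rsad2 (17.9 CPM) and Zbp1 (5.70 CPM).

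In western-diet Plvap KO livers the highest liver was far from the rest for Ifit1 (32.0 CPM), Oasl2 (5.17 CPM) and Gbp7 (24.4 CPM). In high-fat Plvap KO livers Oas1a (6.56 CPM) and Parp14 (40.0 CPM) had a liver far above and Oas2 (2.20 CPM) one far below. In high-fat controls Oasl1 (12.1 CPM) and Ifi27 (263 CPM) had a liver far above and Ifih1 (35.6 CPM) one far below.

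In refed Plvap KO livers Ifit3b (4.28 CPM) and Rtp4 (31.1 CPM) had a liver far above and Gbp2 (2.02 CPM) one far below. In refed controls Mx2 (7.78 CPM) had a liver far above and Oas1g (0.343 CPM) one far below. In chow controls Mx2 (2.60 CPM) had a liver far below the rest.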

How the results depend on the processing

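No member called in the main fits with all livers changed sign. Between diets in controls, Oas1a was called lower without western-diet control A (-0.99). With all livers it was not called, and the 6 OAS genes stood at 0.03 to 0.98. In chow Plvap KO livers, where 1 member was called, DESeq2, edgeR with no filter and edgeR with a replicate block called 4, limma-voom 3, and fits without 1 liver 0 to 3. The further members were Zbp1, Gbp7, Iigp1 and Ifih1, all higher. In refed livers, where 0 were called, edgeR with no filter called 2 (Parp14 and Iigp1). Between diets in controls, where 1 was called, the fit on only the compared groups called 0 and fits without 1 liver 1 to 2. Between diets in Plvap KO livers, where 0 were called, limma-voom called 4 (Bst2 higher, Xaf1, Rtp4 and Parp14 lower), the replicate block 1 (Parp14) and the fit on only the compared groups 2 (Bst2 and Xaf1). In Cav1 KO livers, where 3 were called, edgeR with no filter called 4 (Zbp1 as well). The cause was not tested. In the refed livers, the pairing taken from the letters gave 0 calls with the replicate block, and it changed no other call there. In the other comparisons the livers share only a letter. The median over the members between diets in KO livers was -0.15 without high-fat KO A, and that of the interaction was -0.19 with limma-voom.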
